A study of Mus musculus with 14 samples.

Results

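The genes described here mark or equip sensory neurons of the cranial ganglia. They are the neurotrophin receptors Ntrk2 and Ntrk3, the GDNF receptor Ret, the sodium channels Scn9a and Scn10a, the transcription factors Isl1, Pou4f1 and Drg11, and the intermediate filament gene Prph. They were chosen by name, and where a name stood on several loci the one with the highest mean level was taken. Of the 9 names, 8 had a locus among the 67811 measured loci, and all 8 passed the filter on low values and were tested. No locus carried the name Drg11. The RefSeq gene table lists Drg11 and Drgx as synonyms of Prrxl1, so the Prrxl1 locus is given beside the members and is not counted with them.

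The study compared whole heads, brain included, of C57BL/6J mouse embryos at E12.5 that were Zcchc8+/+ (WT, 5 libraries), Zcchc8+/- (HET, 3 libraries) or Zcchc8-/- (KO, 6 libraries). ZCCHC8 holds together the nuclear exosome targeting (NEXT) complex, through which unstable nuclear transcripts reach the RNA exosome. Levels are FPKM, fragments scaled by transcript length and library size, so they can be compared between genes. Log2 differences were taken between group means of log2(FPKM + 0.1), and a gene was called changed at a limma-trend adjusted p under 0.05. The labels do not say that each library came from its own embryo, so p-values measure only the spread between these samples. In whole heads, fewer cells of a type and less RNA per cell cannot be told apart.

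Sensory neurons of the trigeminal and other cranial ganglia arise from neural crest and placodes, and around this stage they send axons to their targets and come to depend on neurotrophins. The receptor kinases TrkB and TrkC, encoded by Ntrk2 and Ntrk3, bind mainly BDNF and NT-3 respectively and mark classes of these neurons. RET signals for GDNF family ligands together with GFRα co-receptors. Isl1 and Pou4f1 (Brn3a) start and maintain the sensory programme, and Nav1.7 and Nav1.8, the products of Scn9a and Scn10a, shape action potentials of nociceptors. Most of these genes are also active elsewhere in the head: Ntrk2 in neural progenitors and glia, Isl1 in motor neurons, ventral forebrain, retina and pituitary, and Prph in motor and autonomic neurons.

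The Zcchc8 locus followed the labels, with 36.6 to 42.3 FPKM in WT, 24.0 to 27.2 in HET and 9.27 to 20.6 in KO libraries. Total depth is unknown, and relative depth was 1.0 to 1.2 in WT, 1.23 to 1.32 in HET and 1.15 to 1.49 in KO libraries, with WT1 as 1.0. On the second principal component KO1 stood apart at -70.1, where the other libraries lay between -8.74 and 28.4, and each call of a gene or locus named below in KO against WT is given with its log2 difference without KO1. All 13 of the fixed sensory neuron markers were measured and tested, and their summed level was 96.7 to 107 FPKM in WT, 98.5 to 109 in HET and 82.0 to 115 in KO libraries.

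In KO heads Ntrk2 and Scn10a were lower than in WT, and no member was higher. That is 2 of 8 members called lower, where 5.61% of all tested loci were called lower, 19.0% were called higher and 24.6% were called in all. Ret, Isl1, Prph, Ntrk3, Scn9a and Pou4f1 did not pass the threshold, and 3 members had an unadjusted p under 0.05. The median log2 difference was -0.13 over the members and -0.002 over all tested loci. Without KO1, and likewise without KO5, the count was 3, since Ret then also passed. In the authors' deposited matrix the 2 calls were 1 lower, Scn10a, and 1 higher, Pou4f1, with Ntrk2 lost.

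Among the members, HET heads gave no call against WT in limma-trend. Of the 8, 0 were called higher or lower and 0 had an unadjusted p under 0.05. Over all tested loci 1 was called, which is 0.00549%. Zcchc8 itself was not called here, though its HET mean was 64.8% of the WT mean (log2 difference -0.62, SE 0.18, limma-trend unadjusted p = 0.0036). The lack of a call therefore does not show that a member was unchanged in HET. Of the 24 HET values of the members, 16 lay inside the range of the WT libraries. Against HET, 1 of 8 members was called lower in KO, namely Ntrk2, where 4.36% of loci were called lower, 17.9% higher and 22.3% in all. The KO comparisons share the same KO libraries, so they are not independent of each other. The count against HET depended on the libraries: it was 0 without HET4 or HET5, 2 without WT3 or KO5 and 3 without KO1. It also depended on the scaling, with 3 lower after a common median or quantile normalization. In the authors' matrix 1 member was lower, Scn10a, and 1 higher, Pou4f1, while Ntrk2 was not called.

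**Figure D1:**
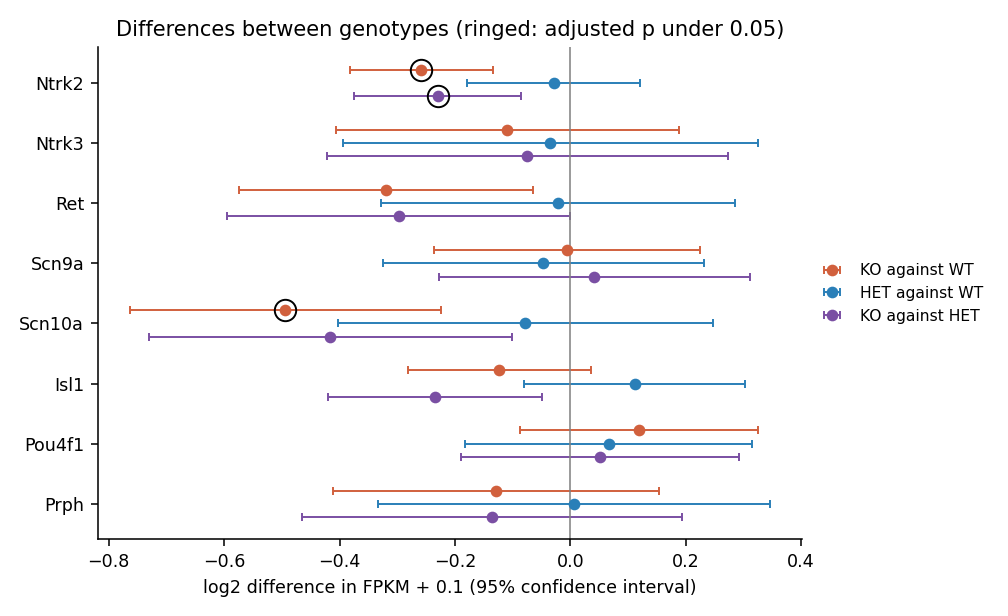
Log2 differences in log2(FPKM + 0.1) for the 8 measured genes, with 95% confidence intervals from limma-trend, for KO against WT, HET against WT and KO against HET. Rings mark an adjusted p under 0.05: Ntrk2 in both KO comparisons and Scn10a against WT, while every HET against WT interval spans 0.

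The sequence upstream of the Ntrk2 start is shown because Ntrk2 was the member called in both KO comparisons, and that of Pou4f1 because a locus within 10 kb of it was called while the gene itself was not. Each line gives the 250 bases before the RefSeq start in GRCm38.p6, 5′ to 3′ on the gene's strand, with E-boxes (CANNTG, the site class of neurogenin and other basic helix-loop-helix factors) in capitals. The Ntrk2 window is chr13:58806319-58806568 on the plus strand and the Pou4f1 window chr14:104468000-104468249 on the minus strand.
Ntrk2: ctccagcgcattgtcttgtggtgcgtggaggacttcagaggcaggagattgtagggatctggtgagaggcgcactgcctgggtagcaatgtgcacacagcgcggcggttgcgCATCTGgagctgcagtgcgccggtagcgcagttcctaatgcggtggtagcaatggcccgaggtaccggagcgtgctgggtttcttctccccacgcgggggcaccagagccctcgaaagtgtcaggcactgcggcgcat
Pou4f1: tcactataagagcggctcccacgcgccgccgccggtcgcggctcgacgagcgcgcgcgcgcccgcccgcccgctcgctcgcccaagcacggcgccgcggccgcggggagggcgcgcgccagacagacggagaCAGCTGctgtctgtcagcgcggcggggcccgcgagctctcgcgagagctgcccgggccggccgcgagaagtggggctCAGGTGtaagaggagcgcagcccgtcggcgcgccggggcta
Both strands were searched for CANNTG, for TAATTA (a homeodomain core) and for ATTAAT (a core of POU-class sites). The 6 members in the RefSeq promoter table are Ntrk2, Scn9a, Scn10a, Isl1, Pou4f1 and Prph. CANNTG was found once each for Ntrk2, Scn9a and Isl1, at 2 places for Pou4f1, and not for Scn10a or Prph, where 66.2% of the 32841 RefSeq promoters of this length hold it. Neither TAATTA nor ATTAAT was found in the 6 windows, where 4.84% and 4.39% of promoters hold them. A match of letters is a description of the window and not a binding site. The GC content of the windows ran from 49.6% for Scn10a to 78% for Pou4f1, where the median of all promoters is 52.4%.

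Ntrk2 (chromosome 13, 58806569 to 59133970, plus strand, GENCODE M21), the receptor for BDNF and NT-4, was lower in KO. In the 5 WT libraries Ntrk2 stood at 18.9, 20.6, 20.5, 20.2 and 18.1 FPKM. In the 3 HET libraries it stood at 18.9, 19.6 and 19.3 FPKM. The 6 KO libraries ran from 15.3 over a median of 16.0 to 19.0 FPKM. Of the KO libraries, 5 lay below every WT and HET library, and KO2, the highest, lay inside the WT range. The KO mean was 83.6% of the WT mean, and the log2 difference was -0.26 (SE 0.058, limma-trend adjusted p = 0.0032), with all 6 KO libraries below the WT mean. Without KO1 it was -0.25 (adjusted p = 0.0080). Against HET the difference was -0.23 (SE 0.068, limma-trend adjusted p = 0.022; -0.22 and adjusted p = 0.040 without KO1), and this call was lost when any HET library was left out (adjusted p = 0.056 without HET3, 0.095 without HET4 and 0.071 without HET5) or when only HET and KO were fitted (adjusted p = 0.052). Between HET and WT it was -0.03 with a 95% interval of -0.18 to 0.12.

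The direction and the call for Ntrk2 have to be read against the scaling of the libraries. The columns of the authors' deposited log2 matrix share the same quartiles. Over the 16421 loci tested there, the median log2 difference of KO against WT was 0.20, against -0.002 in the FPKM values. In that matrix Ntrk2 differed by -0.04 (limma-trend adjusted p = 0.69), which is -0.24 relative to the median of 0.20. Its call against HET was lost there as well (-0.04, adjusted p = 0.78). Ntrk2 is also expressed by neural progenitors. In the FPKM values, of the 8 radial glia and progenitor markers tested, 1 was called higher and 2 lower in KO against WT. Over all tested loci 19.0% were called higher and 5.61% lower. The median log2 difference of these markers was -0.03. Their summed levels were 1541 to 1688 FPKM in WT, 1590 to 1669 in HET and 1433 to 1704 in KO libraries. The lower markers were Ntrk2 itself and Slc1a3, a glial glutamate transporter, at a mean of 21.7 FPKM in WT and 17.6 in KO (log2 difference -0.30, limma-trend adjusted p = 0.0094; -0.28 without KO1). The higher one was the locus that holds Sox2 together with Sox2ot, at 68.0 and 79.9 FPKM (0.23, adjusted p = 0.047), a call lost without KO1 (0.22, adjusted p = 0.076). These 2 genes, like other markers below, were named after their values were seen. The part of such cells in the lower Ntrk2 level was not tested.

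Ntrk3 (chromosome 7, 78175959 to 78738012, minus strand), the receptor for NT-3 in proprioceptive and mechanosensory neurons, did not pass the threshold in any comparison. WT libraries held 7.22, 6.61, 6.61, 5.83 and 7.44 FPKM, and HET libraries 8.28, 5.25 and 6.48. In KO the level ran from 5.08 over a median of 6.11 to 8.70 FPKM, so the KO range enclosed the WT range. The difference between KO and WT was -0.11 (95% interval -0.41 to 0.19, limma-trend adjusted p = 0.64). The coefficient of variation was 9.33% in WT, 22.8% in HET and 21.5% in KO. The ratio of Ntrk2 to Ntrk3 was 2.43 to 3.46 in WT, 2.28 to 3.73 in HET and 2.19 to 3.17 in KO libraries, and these ranges overlap.

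Ret (chromosome 6, 118151745 to 118197718, minus strand), the signalling receptor for GDNF family ligands, lay lower in most KO libraries but did not pass the threshold. WT libraries held 2.02, 2.48, 2.1, 2.25 and 1.87 FPKM, and HET libraries 2.53, 2.0 and 1.83. KO libraries ran from 1.32 over a median of 1.69 to 2.02 FPKM. All 6 were below the WT mean and 4 lay below every WT library, so the groups overlap. The KO mean was 79.6% of the WT mean and the log2 difference -0.32 (SE 0.12, limma-trend adjusted p = 0.066). It passed without KO1 (-0.37, adjusted p = 0.037), without KO5 (-0.36, adjusted p = 0.046) and after quantile normalization (-0.73, adjusted p = 0.00079), while in the authors' matrix it was -0.06 (adjusted p = 0.83).

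Scn10a (chromosome 9, 119608456 to 119719322, minus strand), which encodes the tetrodotoxin-resistant nociceptor channel Nav1.8, was the lowest of the members and was lower in KO. WT libraries held 0.838, 0.757, 0.713, 0.773 and 0.740 FPKM. HET libraries held 0.728, 0.639 and 0.794 FPKM. The 6 KO libraries lay between 0.398 and 0.623 FPKM with a median of 0.530. Every KO library lay below every WT and every HET library. Scn10a was the 1 member of 8 whose KO and WT ranges did not overlap, where 1.99% of all tested loci had every KO library below every WT library, 17.3% had ranges apart in either direction and 5.19% had every KO library below every HET library. The KO mean was 67.9% of the WT mean, and the log2 difference was -0.49 (SE 0.13, limma-trend adjusted p = 0.0083). Without KO1 it was -0.52 (adjusted p = 0.0074), and it was called in all 24 settings in which Scn10a was tested.

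The size of the Scn10a difference depended on how low values were treated, and the gene lies below 1 FPKM. It was -0.32 with a pseudocount of 0.5 and -0.22 with a pseudocount of 1, -0.83 in the authors' matrix and -1.89 after quantile normalization. With a filter of 1 FPKM in 5 libraries Scn10a was not tested. Against HET the difference was -0.42 (SE 0.15, limma-trend adjusted p = 0.057), which passed without KO1 (adjusted p = 0.045), without KO5 (adjusted p = 0.036), with a common median (adjusted p = 0.041), in the authors' matrix (adjusted p = 0.024), with library weights (adjusted p = 0.015) and after quantile normalization (adjusted p = 2.8e-05). Between HET and WT it was -0.08 with a 95% interval of -0.40 to 0.25.

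Scn9a (chromosome 2, 66480080 to 66634962, minus strand), which encodes Nav1.7, did not pass the threshold in any comparison of the FPKM values as deposited. WT libraries held 2.32, 2.04, 2.15, 1.94 and 2.32 FPKM, and HET libraries 2.25, 1.74 and 2.28. In KO it ran from 1.73 over a median of 2.13 to 2.52 FPKM, on both sides of the WT range. The difference between KO and WT was -0.006 (95% interval -0.24 to 0.22, limma-trend adjusted p = 0.98), but after quantile normalization it was -0.36 (adjusted p = 0.039). The files give Scn9a, the neighbouring channel gene Scn1a and several smaller loci the same coordinate range, and a second, low Scn9a locus had a mean of 0.196 FPKM in WT and 0.131 in KO. The ratio of Scn9a to Scn10a was 2.51 to 3.14 in WT, 2.72 to 3.09 in HET and 3.44 to 5.01 in KO libraries. Every KO ratio lay above every WT and HET ratio, which restates the separate values and was not tested.

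**Figure D2:**
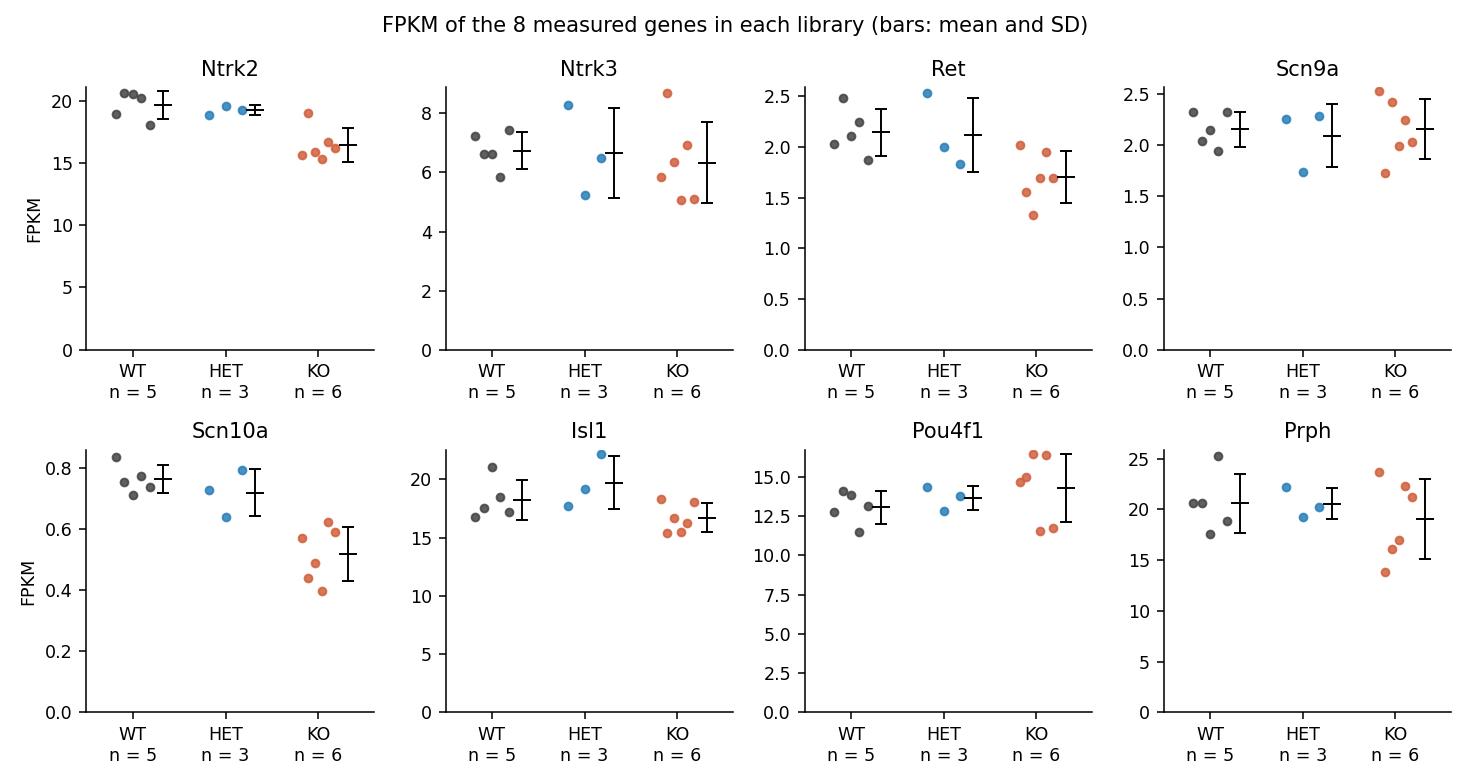
FPKM of the 8 measured genes in each library of WT (n = 5), HET (n = 3) and KO (n = 6), with each library as a point and bars for the mean and SD, on linear axes from 0. Scn10a has no overlap between KO and the other genotypes, Ntrk2 overlaps only through 1 KO library, and the other members overlap.

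Isl1 (chromosome 13, 116298281 to 116309689, minus strand) encodes a LIM homeodomain factor of sensory, motor and other neurons. WT libraries held 16.8, 17.6, 21.1, 18.5 and 17.2 FPKM. HET libraries held 17.8, 19.2 and 22.2 FPKM. KO libraries ran from 15.4 over a median of 16.5 to 18.3 FPKM. The 4 lowest KO libraries lay below every WT library and the other 2 inside the WT range. The log2 difference was -0.12 in KO against WT (95% interval -0.28 to 0.04, limma-trend adjusted p = 0.27) and -0.23 against HET (SE 0.086, adjusted p = 0.068). The comparison with HET passed without WT3 (adjusted p = 0.044), without HET3 (adjusted p = 0.042), without KO1 (adjusted p = 0.046), with a common median (adjusted p = 0.039) and with library weights (adjusted p = 0.024), and in the authors' matrix Isl1 was 0.11 higher in KO than in WT (adjusted p = 0.25).

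Pou4f1 (chromosome 14, 104461676 to 104467999, minus strand) encodes the POU factor Brn3a. WT libraries held 12.7, 14.1, 13.9, 11.5 and 13.2 FPKM, and HET libraries 14.4, 12.8 and 13.8. The KO level was 11.5 to 16.4 FPKM with a median of 14.8. In KO, 4 libraries lay above every WT library and 2 inside the WT range. The log2 difference was 0.12 (95% interval -0.09 to 0.32, limma-trend adjusted p = 0.43). In the authors' matrix it was 0.39 (adjusted p = 0.0023), which is 0.19 relative to the median difference of the loci tested there, and with library weights it was -0.01. In that matrix Pou4f1 was also called higher in KO than in HET (0.29, adjusted p = 0.048), against 0.05 in the FPKM values (adjusted p = 0.81).

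Prph (chromosome 15, 99055174 to 99058978, plus strand) encodes peripherin, an intermediate filament of peripheral neurons. WT libraries held 20.6, 20.7, 17.6, 25.3 and 18.8 FPKM, and HET libraries 22.2, 19.2 and 20.2. The KO level was 13.8 to 23.7 FPKM with a median of 19.1, with 3 below every WT library and 3 inside the WT range. The log2 difference was -0.13 (95% interval -0.41 to 0.15, limma-trend adjusted p = 0.55). Prrxl1, the homeodomain gene listed with the synonym Drg11, had a mean of 4.01 FPKM in WT, 4.07 in HET and 4.49 in KO on a locus that also carries the name RP23-56C21.3. Its difference was 0.14 (95% interval -0.10 to 0.38, limma-trend adjusted p = 0.41).

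In WT heads the order of the mean levels was Prph at 20.6 FPKM, Ntrk2 at 19.7, Isl1 at 18.2, Pou4f1 at 13.1, Ntrk3 at 6.74, Scn9a at 2.15, Ret at 2.14 and Scn10a at 0.764. The library ranges of Prph, Ntrk2 and Isl1 overlapped, as did those of Scn9a and Ret, so their order is within the spread. The range of Pou4f1, 11.5 to 14.1 FPKM, lay below those of the first 3 and above that of Ntrk3. In KO heads the order of the means was Prph at 19.0 FPKM, Isl1 at 16.7, Ntrk2 at 16.4, Pou4f1 at 14.3, Ntrk3 at 6.33, Scn9a at 2.16, Ret at 1.71 and Scn10a at 0.519. The low ends of the members were shared by a few libraries: KO2 was the lowest of the 14 libraries for 3 members and KO4 for another 3.

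The genes whose log2 levels ran most like those of each member were found by Pearson's r over the 14 libraries, a description in which the genotype difference itself takes part. Scn10a ran most like Scara3 (r = 0.906). Prph ran most like Gfra3 (r = 0.921), the co-receptor gene for artemin, and Gal3st1 (r = 0.887). Ntrk2 ran most like Mkrn1 (r = 0.936) and Tspan7 (r = 0.932), and Ret most like Tmem208 (r = 0.922) and Zdhhc14 (r = 0.921). For Isl1 they were Pik3r5 (r = 0.853) and Slc8b1 (r = 0.842), and for Pou4f1 Atrn (r = 0.932) and Cyb5rl (r = 0.869). For Ntrk3 they were AC158971.1 (r = 0.904) and Ccser1 (r = 0.874), and for Scn9a RP23-205D10.4 (r = 0.895) and Runx2 (r = 0.792). Among the members themselves, Scn10a had r = 0.686 with Ret, 0.669 with Ntrk2 and 0.604 with Prph.

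Of the 14 neurotrophin pathway genes, all tested, 5 were lower in KO than in WT and 0 were higher, with 0 higher at an unadjusted p under 0.05, and in the authors' matrix 0 were lower and 1 was higher. The list median was -0.14, and the count of lower genes was 3 without WT4 or KO4. For this list and those below, the shares over all tested loci are 5.61% called lower and 19.0% called higher. Sorcs2, a sortilin-family co-receptor gene, went from 10.96 to 9.21 FPKM (log2 difference -0.25, limma-trend adjusted p = 0.0065; -0.28 without KO1), with every KO library below every WT library. In the authors' matrix Sorcs2 was at 0.07 and not called (adjusted p = 0.54).

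Maged1, which encodes a p75NTR-interacting protein and was the most abundant gene of this list, went from 372 to 340 FPKM (-0.13, limma-trend adjusted p = 0.027; -0.14 without KO1). That call was lost without WT3, WT4, KO4 or KO6 (adjusted p up to 0.076), in the authors' matrix (-0.04, adjusted p = 0.52) and with only WT and KO fitted (adjusted p = 0.054). Ngfrap1, next in abundance, had means of 253 and 246 FPKM (-0.04, limma-trend adjusted p = 0.63). The ligand genes Bdnf and Ntf3 did not pass: Bdnf had means of 1.23 FPKM in WT and 1.26 in KO, and Ntf3 4.34 and 4.24.

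In the GDNF family list of 10 genes, 1 was lower in KO and 0 were higher, with 0 higher at an unadjusted p under 0.05 and a median of -0.13; without KO1, KO2 or KO5 the count of lower genes was 2. Gfra2, the neurturin co-receptor gene, was at 5.12 FPKM in WT, 5.80 in HET and 3.86 in KO, with every KO library below every WT library. KO differed by -0.41 from WT on the log2 scale (SE 0.086, limma-trend adjusted p = 0.0019; -0.39 without KO1) and by -0.58 from HET (adjusted p = 0.00035; -0.56 without KO1), but in the authors' matrix it was 0.05 against WT (adjusted p = 0.79). The 2 most abundant genes did not pass: Ncam1 had means of 56.6 FPKM in WT and 50.1 in KO, and Gfra1 16.7 in both.

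Of the 17 sodium channel genes and channel partners, 14 were tested and Scn4a, Scn4b and Scn11a were too low. In KO 3 were lower and 0 higher, with 0 higher at an unadjusted p under 0.05 and a median of -0.15, while in the authors' matrix 1 was lower and 2 were higher. Scn3b, a beta subunit gene, went from 15.5 to 11.6 FPKM (-0.41, SE 0.099, limma-trend adjusted p = 0.0055; -0.40 without KO1). Fgf13, whose product binds the channels' tails, went from 37.1 to 30.2 FPKM (-0.30, SE 0.071, limma-trend adjusted p = 0.0052; -0.31 without KO1). Every KO library lay below every WT library for both genes. In the authors' matrix both fell short of a call, at -0.14 (adjusted p = 0.26) for Scn3b and -0.14 (adjusted p = 0.11) for Fgf13.

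The median of the sensory transcription factors was 0.05, above those of these lists. In KO 2 of 28 were called higher and 0 lower, with 0 lower at an unadjusted p under 0.05. Among all tested loci 19.0% were called higher and 5.61% lower, so the share called higher was smaller in this list. Whether the lists differ was not tested. Neurog1, the proneural gene of placode-derived and other sensory neurons, had means of 7.68 FPKM in WT, 8.84 in HET and 10.6 in KO, with 5 of 6 KO libraries above every WT library. Its log2 difference was 0.44 (SE 0.14, limma-trend adjusted p = 0.035). Pax3, a gene of neural crest and ophthalmic placode, had means of 10.6 and 12.0 FPKM in WT and KO (0.17, SE 0.058, limma-trend adjusted p = 0.040), with all 6 KO libraries above every WT library. Both calls were lost without KO1, at 0.40 (adjusted p = 0.074) and 0.15 (adjusted p = 0.080), and of the 14 fits that each left out 1 library 5 kept each call. The call of Neurog1 was lost without WT1, WT2, WT4, WT5 or any KO library but KO3 (adjusted p up to 0.099), and that of Pax3 without WT1, WT2, WT4, WT5, HET4, KO1, KO4, KO5 or KO6 (adjusted p up to 0.11). With all libraries, Neurog1 was not called with no filter (adjusted p = 0.087), sex as a covariate (0.063), the replicate block (0.10) or only WT and KO fitted (0.0505). Pax3 was not called with no filter (adjusted p = 0.072), the stricter filter (0.053), a common median (0.075) or sex as a covariate (0.069). The list's count of higher genes was 0 without WT1, WT2, WT4, KO1, KO4, KO5 or KO6, 1 without WT5 or HET4 and 3 without KO3; it was 0 with no filter or with sex as a covariate. With the authors' matrix 13 of the 28 were higher, Neurog1 by 0.77 and Pax3 by 0.48. The most abundant members, Neurog2 and Shox2, had means of 28.3 and 23.0 FPKM in WT and 28.0 and 23.0 in KO and did not pass.

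Of the 28 sensory effector genes, 24 were tested, and in KO 5 were lower and 1 was higher, with a median of -0.20. In the authors' matrix 1 was lower and 1 higher, and the count of lower genes was 2 without WT4 or KO4 and 3 without WT2. Gal, the gene of the neuropeptide galanin, had means of 4.18 FPKM in WT, 5.07 in HET and 2.75 in KO. Its log2 difference was -0.59 from WT (SE 0.14, limma-trend adjusted p = 0.0063; -0.63 without KO1) and -0.88 from HET (adjusted p = 0.00093; -0.92 without KO1), but -0.17 from WT in the authors' matrix (adjusted p = 0.48). Gap43, a growth cone protein gene, went from 168 to 145 FPKM (-0.21, limma-trend adjusted p = 0.024; -0.21 without KO1), a call lost without WT2, WT3, WT4, KO4 or KO6 (adjusted p up to 0.070) and in the authors' matrix (-0.14, adjusted p = 0.054). The most abundant gene, Stmn2, had means of 203 and 182 FPKM (-0.16, adjusted p = 0.12) and did not pass. Avil, named after its values were seen, encodes advillin and went from 1.45 to 1.09 FPKM (-0.39, limma-trend adjusted p = 0.026; -0.44 without KO1), a call lost without WT1, WT4, KO2 or KO4 (adjusted p up to 0.073) and in the authors' matrix (adjusted p = 0.18). It was -0.23 with a pseudocount of 1 and -0.98 after quantile normalization.

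Trpm8, the gene of the cold and menthol receptor of sensory neurons, was the effector gene that rose. WT libraries held 0.00302, 0.0208, 0.0174, 0.0354 and 0.0105 FPKM, and HET libraries 0.0207, 0.0782 and 0.0986. KO libraries ran from 0.259 over a median of 0.613 to 0.831 FPKM. All 6 lay above the 8 libraries of the other genotypes. Trpm8 passed the filter of 0.5 FPKM in 3 libraries only through KO libraries. Its call is therefore not independent of that selection. The log2 difference was 2.40 (SE 0.28, limma-trend adjusted p = 4.6e-06; 2.52 without KO1) and, at so low a level, followed the treatment of low values: it was 1.0 with a pseudocount of 0.5, 0.60 with 1, 4.95 in the authors' matrix and 0.47 after quantile normalization, where it was not called (adjusted p = 0.29). KO libraries also held the most loci above 0, 28310 to 32667 against 26902 to 27622 in WT, and the part of that in the Trpm8 value was not tested.

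**Figure D3:**
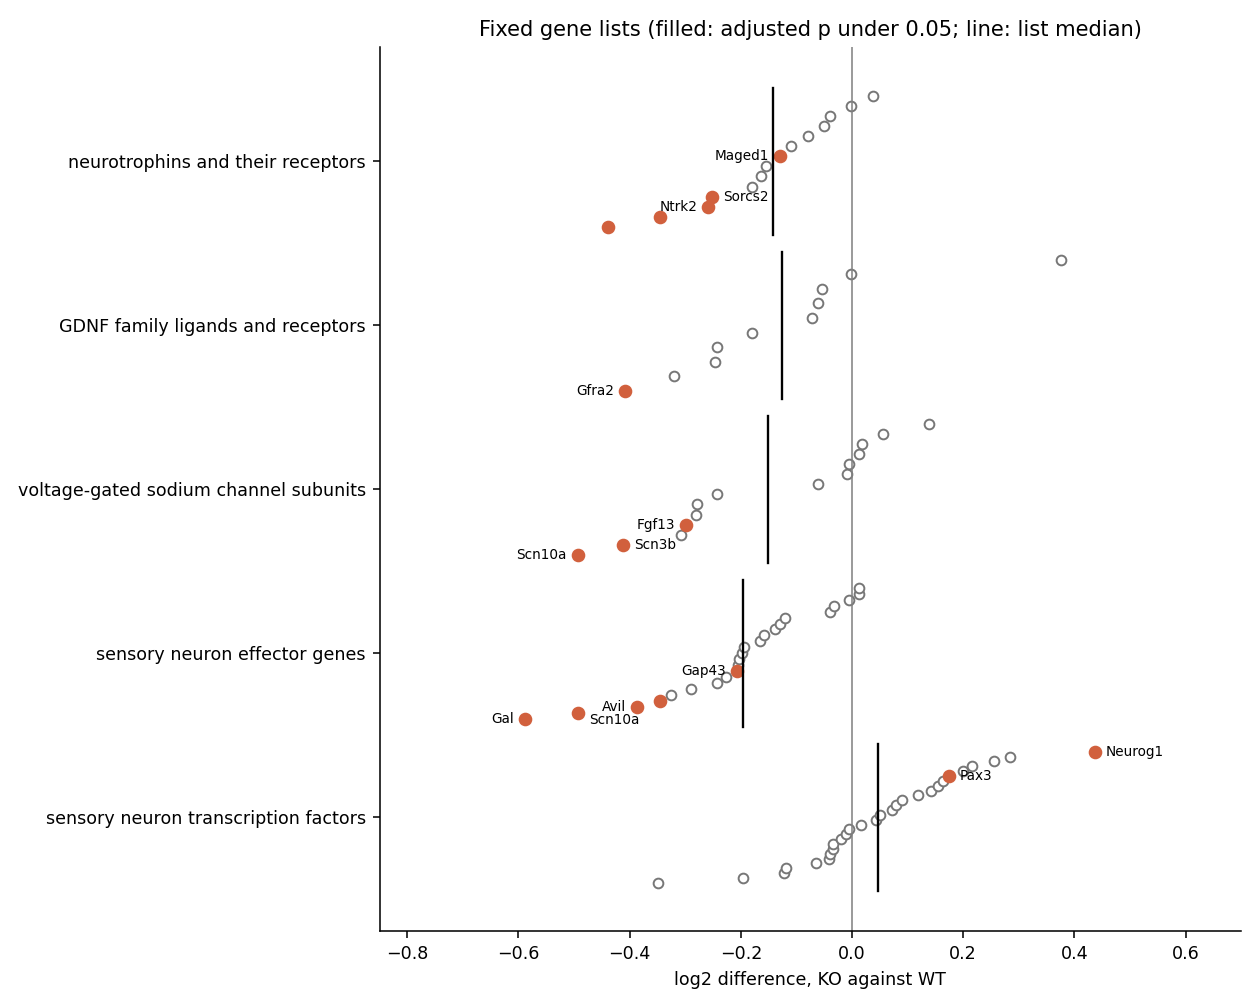
Log2 differences in FPKM + 0.1 between KO and WT for each tested gene of the 5 fixed lists, with filled points for a limma-trend adjusted p under 0.05 and a line at each list's median. The medians are -0.14, -0.13, -0.15 and -0.20 for neurotrophin, GDNF, sodium channel and effector genes and 0.05 for the transcription factors; Trpm8, at 2.40, lies outside the axis.

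Markers of cell types that share the members gave these counts in KO against WT. Of the 13 sensory neuron markers, 0 were higher and 3 lower, among them Scn10a and Avil. Of the 9 tested autonomic markers and the 9 tested cranial motor markers, 0 were called, with 1 of each at an unadjusted p under 0.05, and the motor genes Mnx1 and Chat were at means of 0.0516 and 0.129 FPKM in WT and untested. The summed level was 75.9 to 84.7 FPKM in WT and 65.6 to 91.3 in KO for autonomic markers, and 52.0 to 59.9 and 37.8 to 60.4 for motor markers. Of the 8 Schwann and satellite glia markers 1 was lower, Cnp (log2 difference -0.23, limma-trend adjusted p = 0.029; -0.26 without KO1), with sums of 39.0 to 44.3 and 29.0 to 43.3 FPKM.

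Retinal ganglion cell markers (7 tested) and ventral forebrain markers (10 tested), lists that share Isl1, held 0 calls by limma-trend, with 0 and 1 at an unadjusted p under 0.05. Their sums were 139 to 150 FPKM in WT and 126 to 163 in KO for retina, and 176 to 201 and 163 to 190 for ventral forebrain. Of 5 tested hair cell markers 1 was lower, Myo6 (-0.19, adjusted p = 0.041; -0.21 without KO1), with sums of 16.6 to 18.6 and 16.2 to 19.6 FPKM. Of 7 tested pituitary markers 1 was higher, Pomc, at a mean of 2.36 FPKM in WT and 18.6 in KO (2.94, adjusted p = 1.5e-11, and 2.94 without KO1), with sums of 48.2 to 58.0 and 50.8 to 80.6 FPKM. Pan-neuronal markers (7 tested) held 0 calls, with 1 at an unadjusted p under 0.05, and sums of 473 to 563 FPKM in WT and 418 to 561 in KO. No marker of these lists was at 0 in every library, and the part of any of these cell types in the member values was not tested.

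Other transcripts near the members were examined because the complex that holds ZCCHC8 acts on unstable RNAs. The coordinate range of a locus in the files can span several genes, so nearness here is that of ranges, and strand is not given. Near Prrxl1 lay RP23-56C21.4, which did not pass the filter. Within 10 kb of the 8 members lay 31 other loci, of which 6 had no name and 5 passed the filter. None of the unnamed loci passed it. Of the 5, 3 were higher in KO and 0 lower, where 19.0% of all tested loci were called higher. They were named after their values were seen. An unnamed locus of 115 bases beside Ntrk3 was at 69.4 FPKM in KO6 and listed at 0 in the other 13 libraries.

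RP23-38E14.1, which has the same coordinate range as Ntrk3, stood at 0.559, 0.373, 0.637, 0.495 and 0.424 FPKM in WT and 0.690, 0.591 and 0.529 in HET. In KO libraries it ran from 1.14 to 1.85 FPKM, above all libraries of the other genotypes. It differed by 1.40 from WT (SE 0.15, limma-trend adjusted p = 2.75e-06), by 1.44 without KO1, by 0.72 with a pseudocount of 1 and by 0.74 after quantile normalization. Ntrk3 itself was not called.

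RP23-67A17.1, whose range ends 1654 bases from that of Pou4f1, on chromosome 14 from 104285671 to 104460022, stood at 0.878 ± 0.177 FPKM (SD, n = 5) in WT and 1.42 ± 0.303 (SD, n = 6) in KO. The difference was 0.64 (SE 0.17, limma-trend adjusted p = 0.0097) and 0.56 without KO1 (adjusted p = 0.022), but 0.36 with a pseudocount of 1, and it was not called after quantile normalization (0.04, adjusted p = 0.90) or with library weights (adjusted p = 0.062). Troap, which encodes a protein of the mitotic spindle and lies 9160 bases from Prph, stood at 12.1 ± 1.12 FPKM (SD, n = 5) in WT and 15.7 ± 1.87 (SD, n = 6) in KO (0.37, SE 0.090, limma-trend adjusted p = 0.0060; 0.40 without KO1), and at 0.64 in the authors' matrix. The other 2 tested loci, Scn1a and Rnf219, did not pass, at -0.24 (adjusted p = 0.23) and -0.005 (adjusted p = 0.97).

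**Figure D4:**
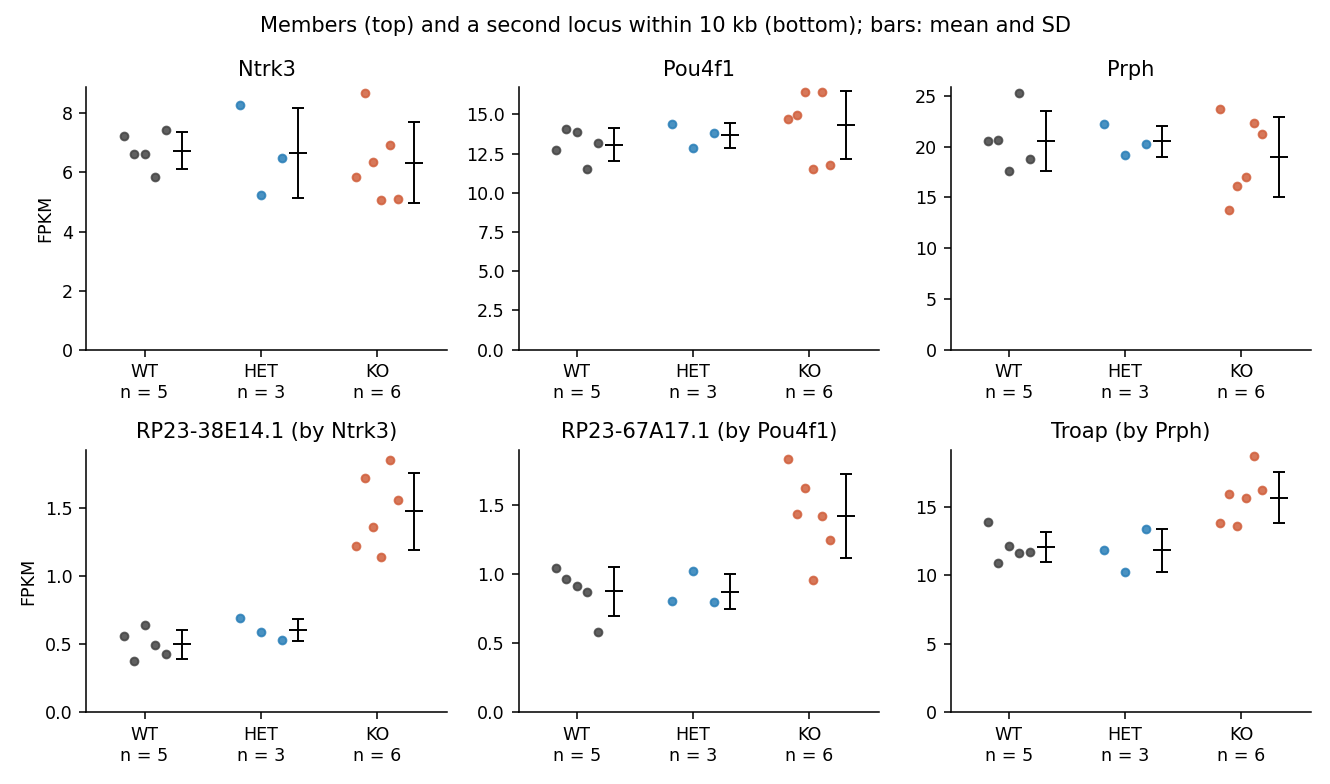
FPKM per library of Ntrk3, Pou4f1 and Prph (top) and of a second locus within 10 kb of each (bottom), with bars for the mean and SD, for WT (n = 5), HET (n = 3) and KO (n = 6). The KO libraries of RP23-38E14.1, at 1.14 to 1.85 FPKM, lie above all others, while those of Ntrk3 span the WT range.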

How the data were processed

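Whole-head RNA of 14 libraries was sequenced from stranded polyadenylated libraries, per the labels' protocols. TopHat2 2.1.0, Cuffdiff and Partek, beside FastQC 0.10.0 and bcl2fastq, and mm10 as genome build are listed in the submitters' processing notes. Neither strand setting nor gene models are given there. The authors deposited FPKM per locus and library, and a matrix of log2 FPKM whose columns share their quartiles and which was used as an alternative. No counts are held, so counting error is unknown.

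Loci with at least 0.5 FPKM in at least 3 libraries (18217 of 67811) were fitted as log2(FPKM + 0.1) with limma-trend (limma 3.58.1, R 4.3.3, robust moderation) in 1 fit of 14 libraries, with Benjamini-Hochberg adjustment over all tested loci at 0.05. The fit was tested on simulated data. Relative depth was read from FPKM steps of loci under 0.3 FPKM. Python 3.11.15, pandas 2.3.3 and matplotlib 3.10.9 made tables and figures. Promoters are RefSeq's, GRCm38.p6; gene coordinates are GENCODE's for the same build.

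The members and lists were chosen with earlier results of these data known. Named genes were Zcchc8, the members, per list up to 4 called genes by smallest p and the 2 most abundant, and the 2 genes most like each member; some genes this rule takes are not reported here. Alternatives were pseudocounts of 0.5 and 1, other filters and scalings, a replicate block, sex as a covariate, library weights, fits of 2 groups and leaving out each library. Sex was inferred from the level of Xist against Y-linked genes in the same FPKM values. This gave 2 female libraries in WT, 2 in HET and 4 in KO.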

Additional observations from a re-analysis of the deposited data

Results flagged for a closer look

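Several loci near the members failed the filter on low values and held RNA in KO libraries but in no WT or HET library. The 2 of these seen in 2 KO libraries are given here. With no filter, the second Ntrk2 locus differed by 0.77 in KO against WT (limma-trend adjusted p = 0.43). KO5 and KO6 also held the most loci above 0, 32319 and 32667, at relative depths of 1.36 and 1.41, and the part of that in these values was not tested. A second locus named Ntrk2, starting at 58806569 on chromosome 13, was at 0.443 FPKM in KO5 and 0.345 in KO6 and listed at 0 in the other 12 libraries. An unnamed locus on chromosome 14, from 104471768 to 104473143 and 3769 bases from Pou4f1, was at 0.286 FPKM in KO6 and 0.186 in KO5 and listed at 0 elsewhere. No library stood far from the others of its genotype in the 18 groups checked, the WT and KO libraries of 9 genes.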

How the results depend on the processing

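Across 25 settings, Scn10a was called lower in KO against WT in all 24 in which it was tested and Ntrk2 in 24 of 25. The number of members called against WT, 2, was 1 lower and 1 higher in the authors' matrix and became 1 under the stricter filter (Scn10a untested) and 4 after quantile normalization; leaving out 1 library gave 2 to 3. Against HET it went from 1 to 3 with a common median, quantile normalization or library weights, 2 in the authors' matrix (Scn10a lower, Pou4f1 higher, Ntrk2 lost), 0 in a fit of those groups alone, and 0 to 3 leaving out 1 library. HET against WT gave 0 throughout. Of the listed genes 15 were called, 34 after quantile normalization, 9 to 16 leaving out 1 library, with 9 without WT4 or KO4. Calls over all loci were 77.2% higher, 95.9% in the authors' matrix and 38.1% after quantile normalization; the cause was not tested.

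Deviations of same-numbered WT and KO libraries correlated at -0.114 to 0.007 and those of other WT and KO pairs at -0.104 to 0.089. Not every library correlated best with its own number, but WT3 and HET3 correlated best with each other, as did WT5 and HET5. Such correlations cannot tell whether libraries of the same number share a litter or batch, so the meaning of the numbers is unknown. Blocking on the replicate number gave 3198 higher and 645 lower loci, against 3463 and 1022; 2 members were called against WT as before, and the calls of Gap43, Maged1 and Neurog1 were lost.

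Signs turned for uncalled differences, and in the authors' matrix for called ones, Gfra2 and Sorcs2 among those reported. In that matrix KO against WT became 0.29 for Ntrk3, 0.33 for Scn9a, 0.11 for Isl1, 0.0856 for Prph, 0.0487 for Gfra2 and 0.0672 for Sorcs2; HET against WT 0.0194 for Ntrk3, 0.0339 for Scn9a, 0.0401 for Scn10a and 0.062 for Ret; KO against HET 0.27 for Ntrk3 and 0.0507 for Prph. The block gave 0.025 (Ntrk3, HET against WT), 0.00898 (Scn9a, KO against WT) and 0.0218 (Ret, HET against WT), and sex as a covariate 0.0252 (Ntrk3) and -0.0294 (Prph) in HET against WT. Quantile normalization gave -0.33 (Scn9a, KO against HET). Library weights gave -0.0101 and -0.0662 (Pou4f1, KO against WT and HET) and -0.00494 (Prph, HET against WT). Leaving out 1 library, HET against WT ran from -0.20 to 0.12 for Ntrk3, -0.11 to 0.0751 for Scn9a, -0.0507 to 0.0832 for Prph and -0.15 to 0.0733 for Ret, KO against HET from -0.23 to 0.091 for Ntrk3 and -0.0806 to 0.11 for Scn9a, and KO against WT from -0.0513 to 0.0531 for Scn9a.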
